A study of Arabidopsis thaliana with 13 samples.

Results

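PIL1 (AT2G46970), HFR1 (AT1G02340), PAR1 (AT2G42870) and PAR2 (AT3G58850) are 4 Arabidopsis genes whose transcripts accumulate in shade and whose products restrain the growth that shade sets off. They were described here by all peaks of 3 proteins that overlapped one of the genes or came within 3 kb of it, whichever gene lay nearer to the summit. The 4 genes stand among 27444 nuclear protein-coding genes, and 20 of 21012 peaks were in reach of them. Chromatin immunoprecipitation sequencing had been done on whole seedlings of the Columbia ecotype, 5 days old and grown in continuous white light, that were then held for 16 h in low blue light. The question of the study was how cryptochromes, receptors of blue light, and PHYTOCHROME INTERACTING FACTORs (PIFs), bHLH transcription factors, control growth together when blue light is scarce. All plants carried a tagged transgene, 3xFlag-6xHis-CRY2 under the UBQ10 promoter (a promoter active in most tissues), PIF4-3xFlag-6xHis, or PIF5-Flash (a tag of 9xMyc, 6xHis and 3xFlag), and each protein was pulled down with an anti-FLAG antibody beside an IgG mock precipitation from the same line. CRY2 had 2 FLAG and 2 IgG libraries, PIF4 3 and 2, and PIF5 2 and 2. The promoters of the PIF transgenes are not given in the sources used here.

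When leaves shade a plant, light low in red and blue reaches it, PIF proteins accumulate, and they bind DNA at E-box elements and switch on growth genes. Some genes that PIFs switch on encode basic helix-loop-helix (bHLH) or helix-loop-helix (HLH) proteins that hold PIFs back, which forms a negative feedback loop. HFR1 is an atypical bHLH protein that pairs with PIF4 and PIF5 into dimers that do not bind DNA, and the COP1 ubiquitin ligase with its SPA partners marks it for breakdown. PIL1 belongs to the same clade of bHLH proteins and is one of the fastest genes to respond to shade. PAR1 and PAR2 are small atypical HLH proteins that do not bind DNA themselves and lower the activity of PIFs and of other growth-promoting bHLH proteins.

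All 4 genes were in reach of a PIF4 peak and of a PIF5 peak, and 2 of them, HFR1 and PAR2, of a CRY2 peak. Over all genes a PIF4 peak was in reach of 57.4%, a PIF5 peak of 27.7% and a CRY2 peak of 46.5%, so that 2 of 4 for CRY2 is close to the background. The 4 genes were picked from a feedback loop that PIFs switch on, so the choice favours the PIFs. PIF4 had 9 peaks at the 4 genes, PIF5 had 6 and CRY2 had 5. Peaks of both PIFs without CRY2 in reach, as at PIL1 and PAR1, were found at 5.99% of genes, and peaks of all 3 proteins, as at HFR1 and PAR2, at 21.1%. Of the 7441 genes with both PIFs in reach, 1644 had no CRY2 peak in reach. The lists pooled the replicates of a protein, so each value below is 1 value of the authors for 1 peak, with no spread between replicates and no test between genes. Read depth is unknown, and each protein had its own IgG control, so fold enrichment was ranked only within its own list (7320 CRY2, 9925 PIF4 and 3767 PIF5 peaks). The CRY2 precipitation started from 18 g of plant material and used an additional cross-linker, while the PIF precipitations started from 2 g and did not. Protein and protocol therefore cannot be told apart where CRY2 and a PIF differ.

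**Figure D1:**
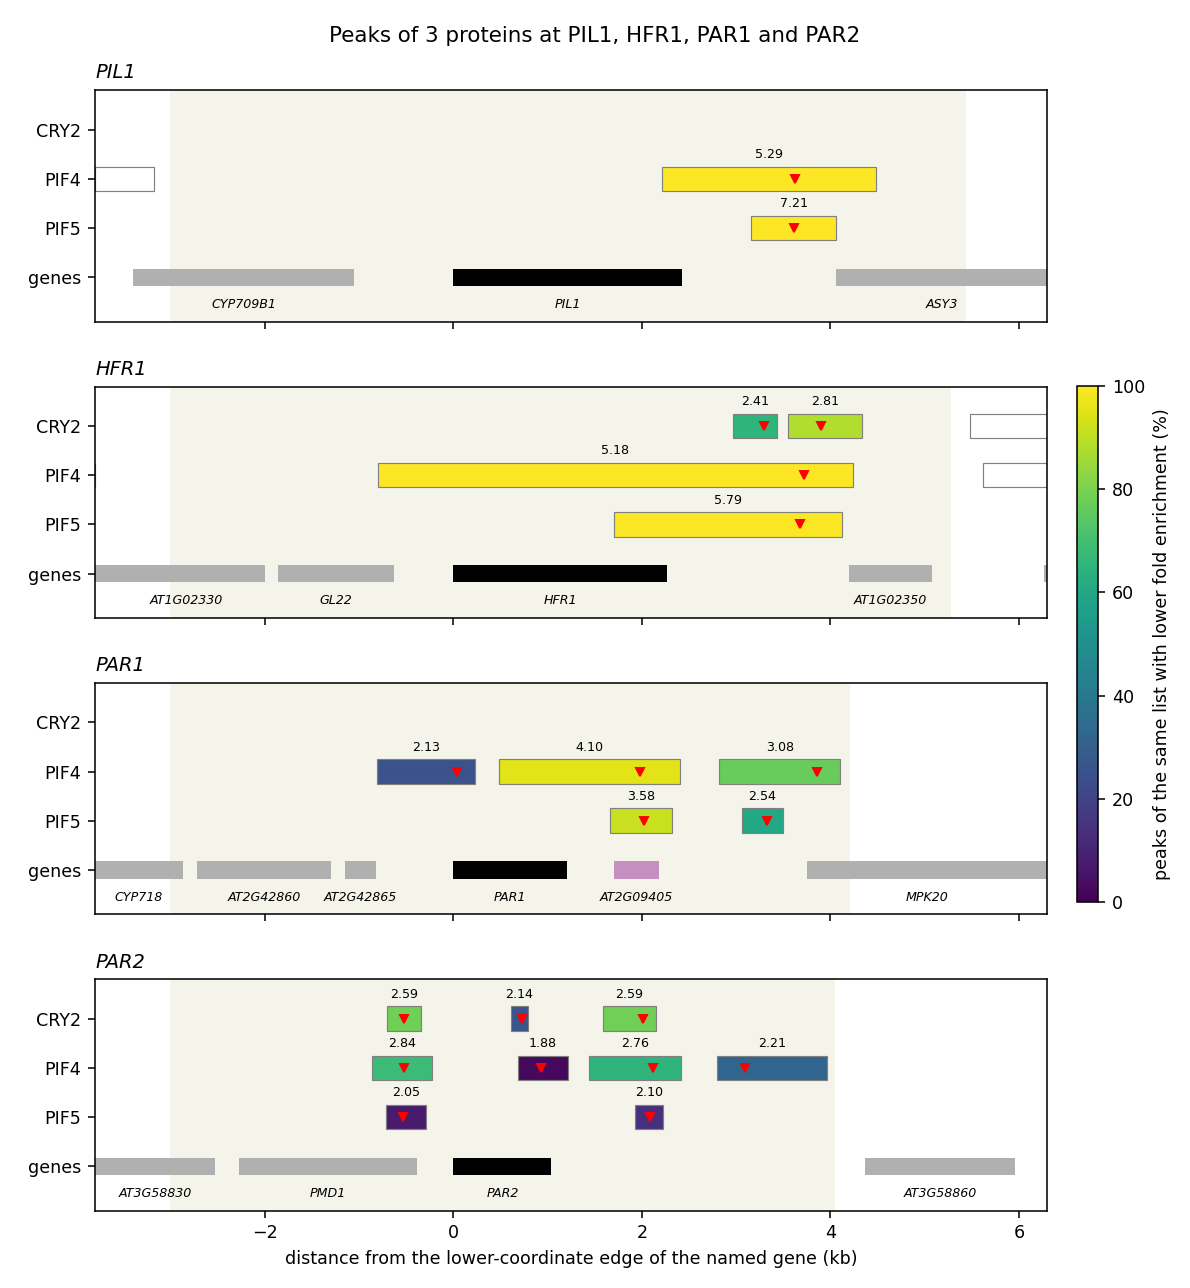
Peaks of CRY2, PIF4 and PIF5 at the 4 genes, by distance in kb from the lower-coordinate edge of the named gene. Bars are peaks, coloured by the percent of peaks of the same list with a lower fold enrichment; the number above a bar is its fold enrichment and the red triangle its summit. Black, grey and purple bars are the named gene, other protein-coding genes and a long non-coding RNA gene; the shaded span reaches 3 kb to either side and open bars lie beyond it. The strongest PIF4 and PIF5 summits lie outside the gene on its higher-coordinate side at PIL1, HFR1 and PAR1, and PIL1 and PAR1 have no CRY2 peak in the span.

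PIL1 held the strongest PIF5 peak of the whole list. Its only PIF5 peak, at chromosome 2, 19298593 to 19299494 on TAIR10, had a fold enrichment of 7.21 and a -log10 p of 174.2, rank 1 of 3767 by either measure. Its only PIF4 peak (19297645 to 19299913) had a fold enrichment of 5.29 and a -log10 p of 165.1, which put it at rank 6 of 9925 by fold enrichment. The 2 summits were 10 bp apart, at 19299054 for PIF4 and 19299044 for PIF5. They lay in the 1633 bp between PIL1 and ASY3, a gene of the meiotic chromosome axis, 1196 bp (PIF4) and 1186 bp (PIF5) from PIL1 and 438 and 448 bp from ASY3. The PIF4 peak was 2269 bp wide and ran into the PIL1 gene, whereas the PIF5 peak, 902 bp wide, ended 735 bp short of it. Which of the neighbours the shared region serves cannot be read from these positions, and the gene table used has no strand.

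No CRY2 peak was listed near PIL1, and the nearest one lay 8480 bp from the gene (fold enrichment 2.81). Such an absence means only that no region passed the authors' threshold. The weakest listed CRY2 peak had a fold enrichment of 1.51 and the least certain one a -log10 p of 4.71. Of the 100 strongest PIF5 peaks 75 overlapped a CRY2 peak, as did 7 of the 10 strongest, and the one at PIL1 is among those that did not. Among the 40 genes with PIF4 and PIF5 peaks in reach that both outranked at least 99% of their lists, 8 had no CRY2 peak in reach, PIL1 among them. Such a pair of PIF peaks was found at 0.146% of all genes and at 2 of the 4 genes, PIL1 and HFR1. Genes that share peaks were counted separately here. GL22, a neighbour of HFR1, is also among the 8. The PIF peaks in its reach are those of HFR1, which overlapped CRY2 peaks that were out of reach of GL22.

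HFR1 lay beside PIF peaks nearly as strong, and there CRY2 was present too. The PIF4 peak (chromosome 1, 464813 to 469854) had a fold enrichment of 5.18 and a -log10 p of 161.2, rank 10 of 9925, and the PIF5 peak (467315 to 469744) had 5.79 and 127.5, rank 20 of 3767. The PIF4 peak was 5042 bp wide, wider than 99.8% of its list, and covered the whole HFR1 gene as well as the end of its neighbour GL22. The PIF5 peak, at 2430 bp, was wider than 96.3% of its list and reached into HFR1 from the higher-coordinate side. The summits of both, at 469335 and 469294, lay outside the gene, 1455 bp (PIF4) and 1414 bp (PIF5) from it, in the 1937 bp that separate HFR1 from AT1G02350.

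CRY2 had 2 peaks on that same side of HFR1, and both overlapped the PIF4 and the PIF5 peak. The nearer one (468587 to 469045) had a fold enrichment of 2.41, above 64.9% of the CRY2 list. The farther one (469161 to 469953) had 2.81, above 88.3% of the list. The PIF4 and PIF5 summits fell between the 2 CRY2 summits, which were 426 bp (468909) and 183 bp (469518) from the PIF4 summit and 385 and 224 bp from the PIF5 summit. These distances exceed the median of 114 bp over all 4486 overlapping CRY2 and PIF4 pairs and of 105 bp over 2460 CRY2 and PIF5 pairs. At least 2 CRY2 peaks in reach were found at 16.4% of genes. Peaks of all 3 proteins that each ranked at least as high as at HFR1 were found in reach of 8 genes, HFR1 included, with genes that share peaks counted separately. They are 8 of the 5797 genes with peaks of all 3 proteins in reach. AT1G02350 and AT1G02360, which share the CRY2, PIF4 and PIF5 peaks of HFR1, are among them.

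PAR1 had several PIF peaks of low to high rank in reach and no CRY2 peak. The strongest PIF4 peak (chromosome 2, 17836901 to 17838823) had a fold enrichment of 4.10, rank 452 of 9925, and ran into the PAR1 gene. Its summit at 17838391 lay 773 bp outside PAR1. The strongest PIF5 peak (17838073 to 17838736) had 3.58, rank 316 of 3767, with its summit 43 bp from that of PIF4 and 816 bp from PAR1. Both summits fell inside AT2G09405, a long non-coding RNA gene in the table that lies between PAR1 and MPK20, a mitogen-activated protein kinase gene.

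A second pair of PIF peaks lay farther out, toward MPK20. There PIF4 had a fold enrichment of 3.08 (17839236 to 17840519) and PIF5 of 2.54 (17839478 to 17839911). Their summits were 530 bp apart, farther than in 89.5% of overlapping PIF4 and PIF5 pairs, and the PIF4 summit was inside MPK20. Another PIF4 peak of 2.13 (17835610 to 17836645), above only 25.3% of its list, overlapped the other end of PAR1 with its summit just inside the gene and had no PIF5 or CRY2 partner. At least 3 PIF4 peaks in reach were found at 6.95% of genes and at least 2 PIF5 peaks at 5.91%. The nearest CRY2 peak (fold enrichment 3.56) was 6301 bp from PAR1, at the far end of MPK20.

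PAR2 had the most peaks of the 4 genes and the weakest PIF peaks. PIF4 had 4 peaks in reach, with fold enrichments of 2.84, 1.88, 2.76 and 2.21 in order along chromosome 3 from 21758489 to 21763318. As many PIF4 peaks or more were found at 1.33% of genes. The strongest of them, at 2.84, was above 68.2% of the PIF4 list, and the peak of 1.88, whose summit lay inside PAR2, was above only 2.23%. PIF5 had 2 peaks, of 2.05 (21758638 to 21759058) and 2.1 (21761273 to 21761570), above 7.38% and 14.0% of its list. Of the 7595 genes with a PIF5 peak in reach, 6551 had a stronger one than PAR2.

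CRY2 had 3 peaks at PAR2, a number reached by 4.71% of genes. Their fold enrichments were 2.59 (21758651 to 21759004), 2.14 (21759963 to 21760139) and 2.59 (21760936 to 21761502), above 78.4%, 26.3% and 78.4% of the CRY2 list. The first CRY2 peak had its summit in PMD1, the neighbouring gene, which is known for peroxisomal and mitochondrial division. The second was inside PAR2 and the third 546 bp beyond it. At the first site the summits of all 3 proteins, at 21758828, 21758823 and 21758814, were within 14 bp of one another, and the CRY2 and PIF4 summits, 5 bp apart, were nearer than 96.9% of overlapping CRY2 and PIF4 pairs. At the third site the CRY2 summit (21761360) was 106 bp from that of PIF4 and 75 bp from that of PIF5. Inside PAR2 the CRY2 and PIF4 peaks overlapped with summits 198 bp apart, and no PIF5 peak was listed.

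PAR2 therefore ranked higher in the CRY2 list than in the PIF5 list, the reverse of HFR1. Its strongest CRY2 peak was above 78.4% of that list and its strongest PIF5 peak above 14.0%. These percent ranks come from unlike lists, 7320 CRY2 peaks down to a fold enrichment of 1.51 and 3767 PIF5 peaks down to 1.86. The contrast was not repeated with lists of equal size. Among the 5797 genes with all 3 proteins in reach, 61.0% ranked higher for CRY2 than for PIF5, and 3.81% had a rank at least as high for CRY2 and at least as low for PIF5 as PAR2.

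**Figure D2:**
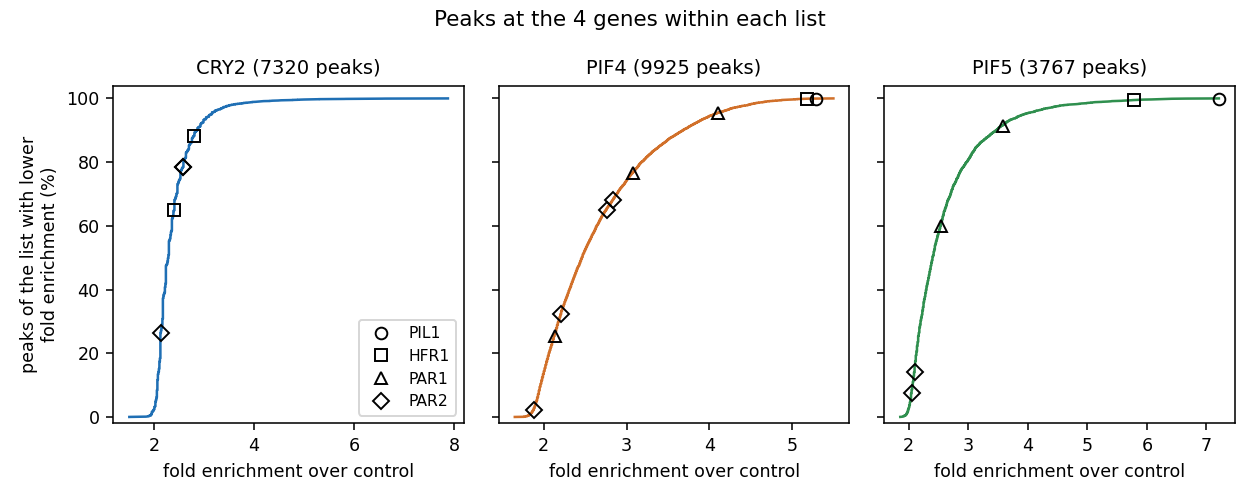
Fold enrichment over control (x axis) against the percent of peaks of the same list with a lower value (y axis), in 1 panel per protein. Lines are all peaks and open symbols the peaks at PIL1 (circle), HFR1 (square), PAR1 (triangle) and PAR2 (diamond). PIL1 and HFR1 sit at the top of both PIF lists, up to 7.21 for PIF5, while the CRY2 peaks at HFR1 and PAR2 range from 2.14 to 2.81.

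Both PIF lists gave the 4 genes the same order by their strongest peak, PIL1, HFR1, PAR1 and PAR2. The strongest PIF4 peaks had fold enrichments of 5.29, 5.18, 4.10 and 2.84 in that order. The strongest PIF5 peaks had 7.21, 5.79, 3.58 and 2.1. By -log10 p the order was again PIL1, HFR1, PAR1, PAR2, with 165.1, 161.2, 122.3 and 46.6 for PIF4 and 174.2, 127.5, 51.8 and 10.9 for PIF5. In the CRY2 list HFR1 (2.81) stood above PAR2 (2.59), an order that turned when only peaks within 1 kb counted, with 2.41 for HFR1 and 2.59 for PAR2. Without replicate values it is unknown which neighbours in these orders differ beyond their error, and PIL1 and HFR1 are close in the PIF4 list. Peaks that both outranked at least 90% of the PIF4 and PIF5 lists were in reach of 2.66% of genes and of 3 of the 4, PAR2 being the exception.

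By the position of their summits, the sites of PIF4 and PIF5 at the 4 genes were mostly the same sites. All 6 PIF5 peaks overlapped a PIF4 peak, as did 96.4% of the PIF5 list. Of the 9 PIF4 peaks 6 overlapped a PIF5 peak, against 35.1% of the PIF4 list. In 5 of the 6 overlapping pairs the summits were 9 to 43 bp apart, around the median of 32 bp over 3684 pairs, and the outer pair at PAR1, 530 bp apart, was the other. Where 1 shared bp sufficed, all 5 CRY2 peaks at these genes overlapped a PIF4 peak, against 60.4% of the CRY2 list. A PIF5 peak overlapped 4 of them, against 33.0%. Both CRY2 peaks at HFR1 overlapped the same PIF4 peak, 5042 bp wide. With at least 50% of both peaks shared, 2 of the 5 overlapped a PIF4 peak (33.3% of the list) and 1 a PIF5 peak (22.6%). Summits within 100 bp were found for 1 of the 5 with PIF4 (28.3%) and 2 with PIF5 (16.3%). With 5 peaks at 2 genes these shares describe the loci and are not set apart from the list. When a shared stretch of at least 50% of each peak was required, 1 of the 4 genes kept an overlapping pair of PIF4 and PIF5 (PAR2). By that rule 1 of the 6 PIF5 peaks overlapped a PIF4 peak, against 70.9% of the PIF5 list. Of the 9 PIF4 peaks 1 overlapped a PIF5 peak, against 26.9% of the PIF4 list. The PIF4 peak was the wider one in each of the 6 pairs.

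**Figure D3:**
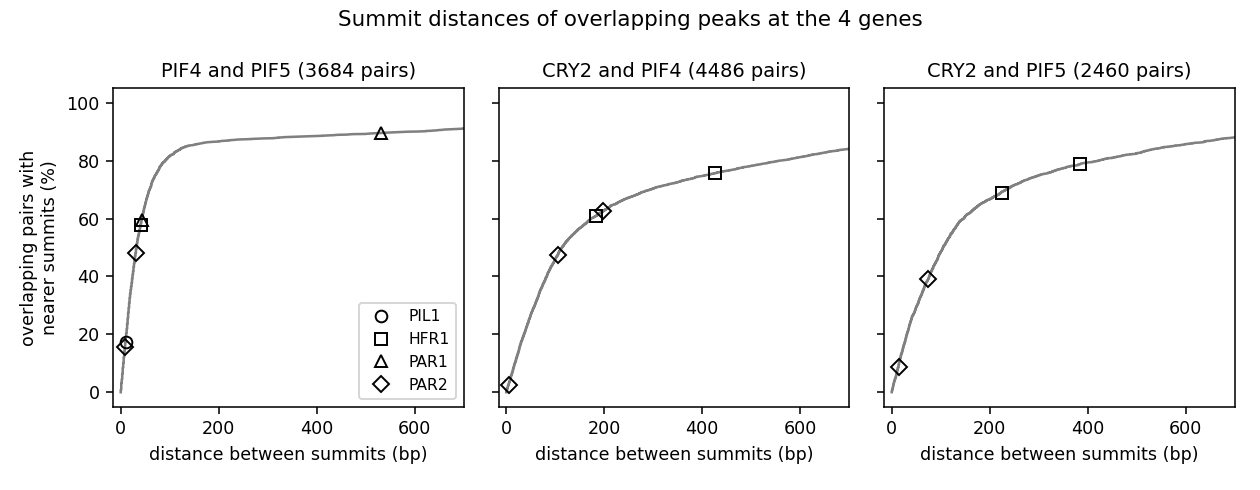
Distance in bp between the summits of overlapping peaks (x axis) against the percent of overlapping pairs with nearer summits (y axis), for 3 pairs of proteins. Lines are all overlapping pairs, shown only as far as the axis reaches, and symbols the pairs at the 4 genes. PIF4 and PIF5 summits are 9 to 43 bp apart in 5 of 6 pairs, and the CRY2 summits at HFR1 lie farther from the PIF summits than at the outer sites of PAR2.

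Of the 20 peaks 7 overlapped a member gene and 3 had their summit inside one, 2 of them at PAR2 and 1 at the edge of PAR1. Another 6 summits lay inside a neighbouring gene (PMD1, MPK20 or the long non-coding RNA gene AT2G09405), and 11 lay in no annotated gene. The summit lay on the higher-coordinate side of the gene for 14 peaks and on the lower-coordinate side for 3, all 3 at the PMD1 end of PAR2. For 11 peaks the summit was over 1 kb from the gene. For 8 of 20 peaks the member was the protein-coding gene nearest to the summit, and for the others it was ASY3, AT1G02350, MPK20, PMD1 or AT3G58860. Under the rule that a peak counts only for the gene nearest to its summit within 3 kb, 2 of the 4 genes had a PIF4 peak, 2 a PIF5 peak and 1 a CRY2 peak, against 28.7%, 11.9% and 22.1% of all genes. PIL1 and HFR1, which have the strongest peaks, were the ones lost to neighbours. When only peaks over the gene body counted, PIF4 was at 4 genes, PIF5 at 1 (HFR1) and CRY2 at 1 (PAR2), against 30.7%, 11.9% and 23.5% of all genes.

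At PIL1 and HFR1 further peaks began shortly past the 3 kb limit. The next peak was 6301 bp from PAR1 and 6207 bp from PAR2, both of CRY2. The farthest peaks in reach had their edge 1860 bp (PIF5) and 1618 bp (PIF4) from PAR1 and 1756 bp (PIF4) from PAR2. The nearest ones out of reach were a PIF4 peak 3175 bp from PIL1 (fold enrichment 2.27), and a CRY2 peak 3216 bp (2.70) and a PIF4 peak 3356 bp (3.63) from HFR1. The next PIF5 peak beyond the window of PAR2 lay 39089 bp from the gene. Within the window of 3 kb to either side, PIF4 peaks covered 61.0% of the bases at HFR1, 58.9% at PAR1, 47.0% at PAR2 and 26.9% at PIL1. PIF5 peaks covered from 10.2% (PAR2) to 29.4% (HFR1), and CRY2 peaks 15.1% at HFR1 and 15.6% at PAR2.

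The genes around the feedback loop were set beside these 4 in 4 lists. The list closest in its PIF values was that of shade-induced homeobox, auxin and growth genes. PIF4 and PIF5 were each in reach of 12 of its 14 members (57.4% and 27.7% of all genes) and CRY2 of 9 (46.5%), and 9 members had PIF4 and PIF5 peaks that both outranked at least 90% of their lists. The strongest peaks in reach had a median fold enrichment of 4.53 (PIF4), 4.23 (PIF5) and 2.36 (CRY2). The 4 genes had 4.64, 4.69 and 2.70, the last from HFR1 and PAR2 alone, and all genes with a peak had 2.68, 2.48 and 2.36. With each list held to its 3767 strongest peaks, CRY2 was in reach of 5 of the 14, beside 28.4% of all genes. Known PIF targets are among the members, so the choice favours the PIFs. ATHB2, HAT1, HAT2 and HAT3, homeobox transcription factor genes, were in reach of all 3 proteins. At ATHB2 the strongest peaks had fold enrichments of 2.13 (CRY2), 4.44 (PIF4) and 5.09 (PIF5), and at HAT1 of 2.39, 5.13 and 4.88. HAT2 had 2.24, 3.98 and 3.47, and HAT3 had 2.45, 4.66 and 3.97. YUC8, IAA19, IAA29, ST2A and CKX5 were also in reach of all 3. ATHB4, YUC9 and XTH15 had both PIFs without CRY2, as PIL1 and PAR1 did, and YUC2 and YUC5 had no peak in reach.

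In the bHLH clade to which PIL1 and HFR1 belong, PIF4 was in reach of 8 of 9 other members, CRY2 of 7 and PIF5 of 5, beside 57.4%, 46.5% and 27.7% of all genes, with median strongest peaks of 3.08 (PIF4), 2.56 (CRY2) and 2.63 (PIF5). PIF6, listed as PIL2 in the gene table, was the only 1 of the 9 with PIF4 and PIF5 peaks that both outranked 90% of their lists (5.34 and 5.80, with CRY2 at 2.86). PIF3 had 2.34 for CRY2, 3.83 for PIF4 and 3.09 for PIF5. The PIF4 gene had 2.76, 3.21 and 2.19, and the PIF5 gene 2.93, 2.94 and 2.44. These last are loci whose coding sequence is also carried by transgenes, and the part of the transgene copies in those values was not tested. PIF8 was in reach of all 3 proteins, PIF7 and SPT of CRY2 and PIF4, ALC of PIF4 alone, and PIF1 of none.

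Among the HLH genes of growth control, to which PAR1 and PAR2 are related by their lack of DNA binding, PIF4 was in reach of 10 of 11, CRY2 of 7 and PIF5 of 6. The shares of all genes were 57.4%, 46.5% and 27.7%. Within 1 kb the counts for CRY2 and PIF5 were 3 each, beside 32.3% and 17.8% of all genes, and with lists of equal size that for CRY2 was 3, beside 28.4%, so the CRY2 counts are near or below the background there. The list holds the PRE genes, whose products promote growth, and IBH1 and the AIF genes, whose products restrain it. The median strongest peak was 3.82 in the PIF4 list, 3.94 in the PIF5 list and 2.18 in the CRY2 list. IBH1 had 2.77 for CRY2, 5.10 for PIF4 and 5.76 for PIF5, values near those of HFR1. AIF4 had 2.18, 3.82 and 4.54, and AIF3 had 2.18, 4.22 and 3.46. PRE6 (KDR in the table) had 2.53, 3.09 and 2.12, with a low PIF5 peak like that of PAR2. PRE1 and AIF2 had both PIFs without CRY2, PRE2, PRE3 and AIF1 had CRY2 and PIF4, PRE5 had PIF4 alone and PRE4 had no peak in reach.

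Photoreceptor genes and the regulators of HFR1 protein made the fourth list, with PIF4 in reach of 9 of 10, PIF5 of 7 and CRY2 of 6, beside 57.4%, 27.7% and 46.5% of all genes. The median strongest peak was 3.40 in the PIF4 list, 3.04 in the PIF5 list and 2.96 in the CRY2 list. SPA1, whose product acts with COP1 on HFR1, had 3.33 for CRY2, 4.03 for PIF4 and 3.30 for PIF5. COP1 itself had 3.25 for PIF4 and 3.01 for PIF5 and no CRY2 peak in reach. PHYB, which encodes the main receptor of red light, had 2.39, 4.55 and 6.08, and PHYA, the receptor of far-red light, 3.33, 3.79 and 3.36. HY5, a bZIP factor of light responses, had 2.59, 2.64 and 3.04. PHYD and PHYE had both PIFs without CRY2, CRY1 and CRY2 had CRY2 and PIF4, and PHYC had no peak in reach. The CRY2 gene, with 5 CRY2 peaks in reach and the highest CRY2 value of this list (3.78), is also carried by the CRY2 transgene, and the part of the transgene copies in that value and in the CRY2 median was not tested.

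**Figure D4:**
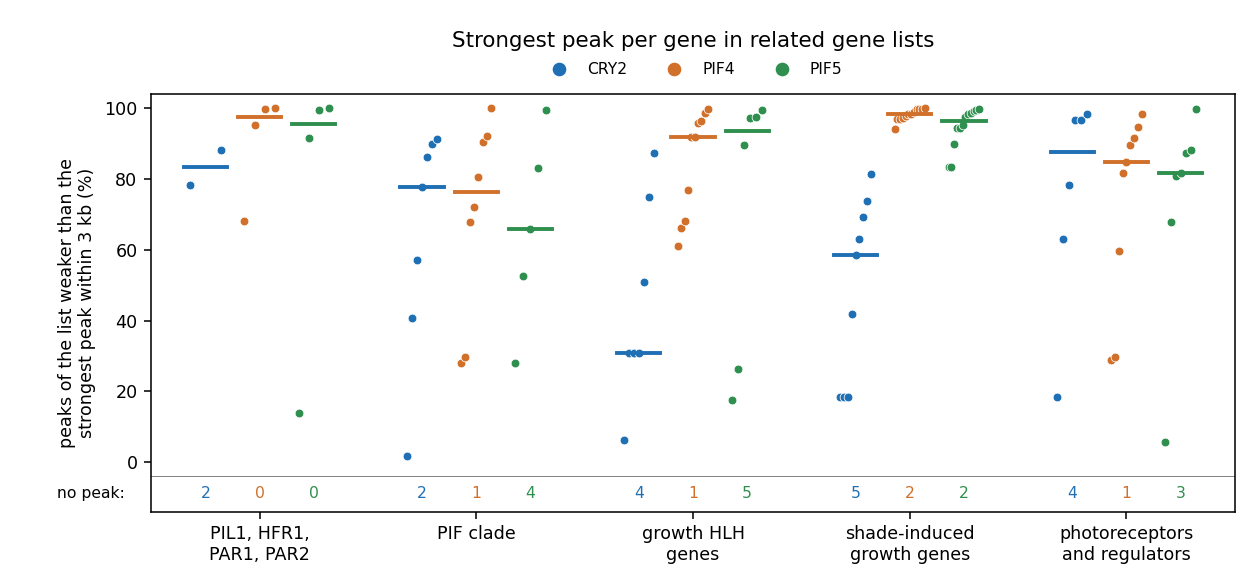
Strongest peak within 3 kb of each gene, as the percent of peaks of the same list that are weaker (y axis), for the 4 genes and 4 related gene lists (x axis). Points are genes, bars the median of genes with a peak, colours the 3 proteins, and numbers at the foot the genes without a peak in reach. In the PIF4 and PIF5 columns PIL1, HFR1 and PAR1 stand with most shade-induced growth genes above 90%, and PAR2 is at 14.0% for PIF5.

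The genes whose pattern over the 3 proteins was most like that of a member were found by the distance between percent ranks of their strongest peaks, 3 values per gene with 0 for no peak. For PIL1 they were HTA12 and AT5G02570, which share the same peaks (PIF4 5.06, PIF5 6.21, distance 0.322), and GL22 (5.18 and 5.79, distance 0.507), which is the neighbour of HFR1 and shares the PIF peaks of HFR1. The 2 CRY2 peaks that overlapped those PIF peaks were out of reach of GL22. For HFR1 they were XYL1 (2.81 for CRY2, 5.04 for PIF4 and 5.34 for PIF5, distance 0.511) and, at distance 0.783, the neighbours ATPMEPCRD and IBH1. For PAR1 they were PCR11, AT1G68620 and AT1G68630, all in reach of the same peaks of 4.13 for PIF4 and 3.53 for PIF5 (distance 0.668). For PAR2 the nearest were farther off: PCME (2.59, 2.80 and 2.11, distance 2.71), ERD1 (distance 2.95) and AT2G29670 (distance 3.56). Likeness over 3 values in pooled lists is a description of these lists.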

How the data were processed

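The 13 libraries in 6 groups (FLAG and IgG precipitations of CRY2, PIF4 and PIF5) were deposited as 3 peak lists, 1 for each protein, called by the authors on pooled replicates. Tools named in the submitters' processing notes are MACS2 2.0.10, Bowtie2 2.1.0 and CASAVA 1.8.2, without roles, and the build is TAIR10. Each deposited line gives the authors' fold enrichment over control as a ratio, the deposited -log10 p, a deposited score that is 10 times this -log10 p cut to a whole number, and a summit offset.

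Genes came from a RefSeq table of TAIR10.1, without strand or sequence, so sides of a gene are given by coordinate and the planned motif search was not made. Its frame was checked by shifting it: 49.3% of PIF4 summits lay outside genes within 1 kb in place, and 22.2% after 5000 bp. A peak was in reach of a gene when it overlapped it or came within 3 kb, peaks overlapped when they shared at least 1 bp, and ranks were taken by fold enrichment within a list. No test was run, because pooled lists hold no replicates. The counting steps were tested on simulated data. Python 3.11.15, numpy 2.4.6, pandas 2.3.3 and matplotlib 3.10.9 were used. All 44 listed genes were matched by locus. Named genes were the 4 members, the genes nearest to the summits of their peaks, the 3 genes most alike per member, and per list up to 4 members in listed order, starting with those in reach of most proteins. COP1, a long non-coding RNA gene and the contrasts over patterns of all 3 proteins were added after their values were seen. The values of the CRY2 gene were also given outside that rule. The members and lists were chosen with earlier results of these data known.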

Additional observations from a re-analysis of the deposited data

How the results depend on the processing

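No paired analysis was possible because the lists pool the replicates and no result comes from a test, and for the same reason leaving out a replicate could not be run. With a reach of 1 kb, the strongest CRY2 peak of HFR1 was above 64.9% of its list, below that of PAR2 at 78.4%, and the growth HLH genes in reach were 3 for CRY2 and 3 for PIF5. With the gene body alone, CRY2 was at 1 member and PIF5 at 1. With the gene nearest to the summit, CRY2 was at 1, PIF4 at 2 and PIF5 at 2. Ranked by -log10 p, the strongest peaks were above 87.0% (HFR1, CRY2), 97.7% (PAR1, PIF4), 93.5% (PAR1, PIF5), 83.4% (PAR2, CRY2), 69.1% (PAR2, PIF4) and 5.57% (PAR2, PIF5) of their lists, which left the order of the members in each list as it was. Overlap of at least 50% of both peaks left 1 member each for CRY2 with PIF4, CRY2 with PIF5 and PIF4 with PIF5, and summits within 100 bp left 1 for CRY2 with each PIF. The shares of all genes under these overlap rules were not counted, so these counts of members have no background here. In lists of equal size CRY2 was in reach of 3 growth HLH genes and 5 shade-induced growth genes. The other 56 of 77 alternative values stayed within 1.5 times the main count or within counting error of the main rank. Unknown depth limits every absence.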
